A study of Homo sapiens with 19 samples.

Results

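Aminoacyl-tRNA synthetases, the enzymes that load each tRNA with its amino acid, were followed in human embryonic stem cells (hESCs) over the first 72 h after they were induced to become brown adipocytes (BAs). The members were the genes whose symbol is 1 or 2 letters for the amino acid followed by ARS and 1, 2 or 3, together with EPRS1, FARSA, FARSB and SEPSECS. Described here are 37 of the 20503 genes with a matched probe. Of these, 19 act in the cytosol, 16 act in mitochondria, and GARS1 and KARS1 encode enzymes of both compartments. All 37 passed the filter on low signals, and 35 were well above background on each of the 19 arrays. The exceptions were SEPSECS, which missed this mark at 14 h, and MARS2, which missed it at 10, 14 and 16 h.

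The cells were KhES-3, an hESC line, collected once per time point after BA induction, at 3, 4 and 6 h, then every 2 h from 8 to 16 h, every 4 h from 20 to 36 h and every 6 h from 42 to 72 h, which gives 19 samples. All samples shared 1 treatment, culture in a low-attachment dish in a serum-free medium with IGF-II, BMP4, VEGFA, KITLG, FLT3LG and IL-6, and no untreated sample was analysed here. RNA was labelled with Cy3 and measured on one-colour Agilent arrays with 62976 spots. Before induction the cells grew on irradiated mouse embryonic fibroblasts by the sample labels, whereas the methods of the study describe a feeder-free system. The line is 1 line and each time point is 1 sample, so nothing is known of the spread between cultures, and the scatter of the arrays around a trend stands in for it.

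The share of probes well above background lay between 49.5% (14 h) and 64.7% (54 h), with 52.0% for the array of 16 h and 53.8% for that of 72 h. The arrays lay on 3 slides, with the 6 arrays from 3 to 12 h on the first, the 8 from 14 to 42 h on the second and the 5 from 48 to 72 h on the third. No time point was on more than 1 slide, and the third slide was scanned on another day than the others. Changes from slide to slide therefore cannot be told apart from changes over time. Of the pluripotent stem cell markers tested, POU5F1 (260314 to 414794), SOX2 (20182 to 33788), NANOG, LIN28A, DNMT3B and PODXL were well above background throughout, with slopes called falling for POU5F1, LIN28A and DNMT3B. Of the fibroblast markers, COL1A1, COL1A2 and THY1 were bright on all arrays, whereas DCN did not exceed 55.1, COL3A1 and LUM were each well above background on 1 array, and PDGFRB was so on 17 (47.5 to 154). Of the 5 fibroblast markers tested, COL1A1 (difference -0.19) and PDGFRB (-0.98) were called falling, COL1A2 (0.31) rising, and THY1 and DCN were not called. The part of other cells in the results below was not tested, and in bulk RNA fewer cells of a type and less RNA per cell cannot be told apart.

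Each amino acid needs its own synthetase, which joins the amino acid to the end of the matching tRNA at the cost of ATP. Mitochondria translate their own few messages with a separate set of enzymes, encoded by nuclear genes and imported. Several cytosolic synthetases sit together in a multi-synthetase complex. When amino acids run short, the transcription factor ATF4 raises many cytosolic synthetase genes together with amino acid transporters and biosynthetic enzymes.

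Signals are given as background-subtracted intensities, scaled so that every array has a 75th percentile of 725. Levels belong to 1 probe each and are not compared between genes. A gene was called rising or falling when the slope of its log2 signal on hours had a limma adjusted p under 0.05 over all 32113 probes tested. The size of a change is the mean log2 signal at 60, 66 and 72 h, called late here, minus that at 3, 4 and 6 h, called early. The arrays of a window are different time points, not replicates. All early arrays lay on the first slide and all late arrays on the third, so slide and time cannot be told apart in this difference.

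More synthetases fell than rose with the arrays scaled to their 75th percentile. The slope was falling for 19 of 37 genes (51.4%), against 32.7% of all 16694 genes tested, and rising for 6 (16.2%), against 21.3% of all genes. The late minus early difference had a median of -0.33 (log2) over the 37 synthetases and of -0.11 over all genes. In 22 of 37 (59.5%) every late array was below every early array, compared with 38.7% of all genes, and in 4 (10.8%) every late array was above, compared with 25.7%. Of the 37 synthetases only MARS1 changed by more than 2-fold, compared with 2231 of all 16694 genes. With normexp background correction and quantile normalisation instead, 11 of 37 fell and 11 rose, against 27.6% and 21.0% of all genes, so the excess of falls over rises depended on this choice. The cytosolic and mitochondrial classes had medians of -0.44 and -0.23, a difference that was not tested.

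**Figure D1:**
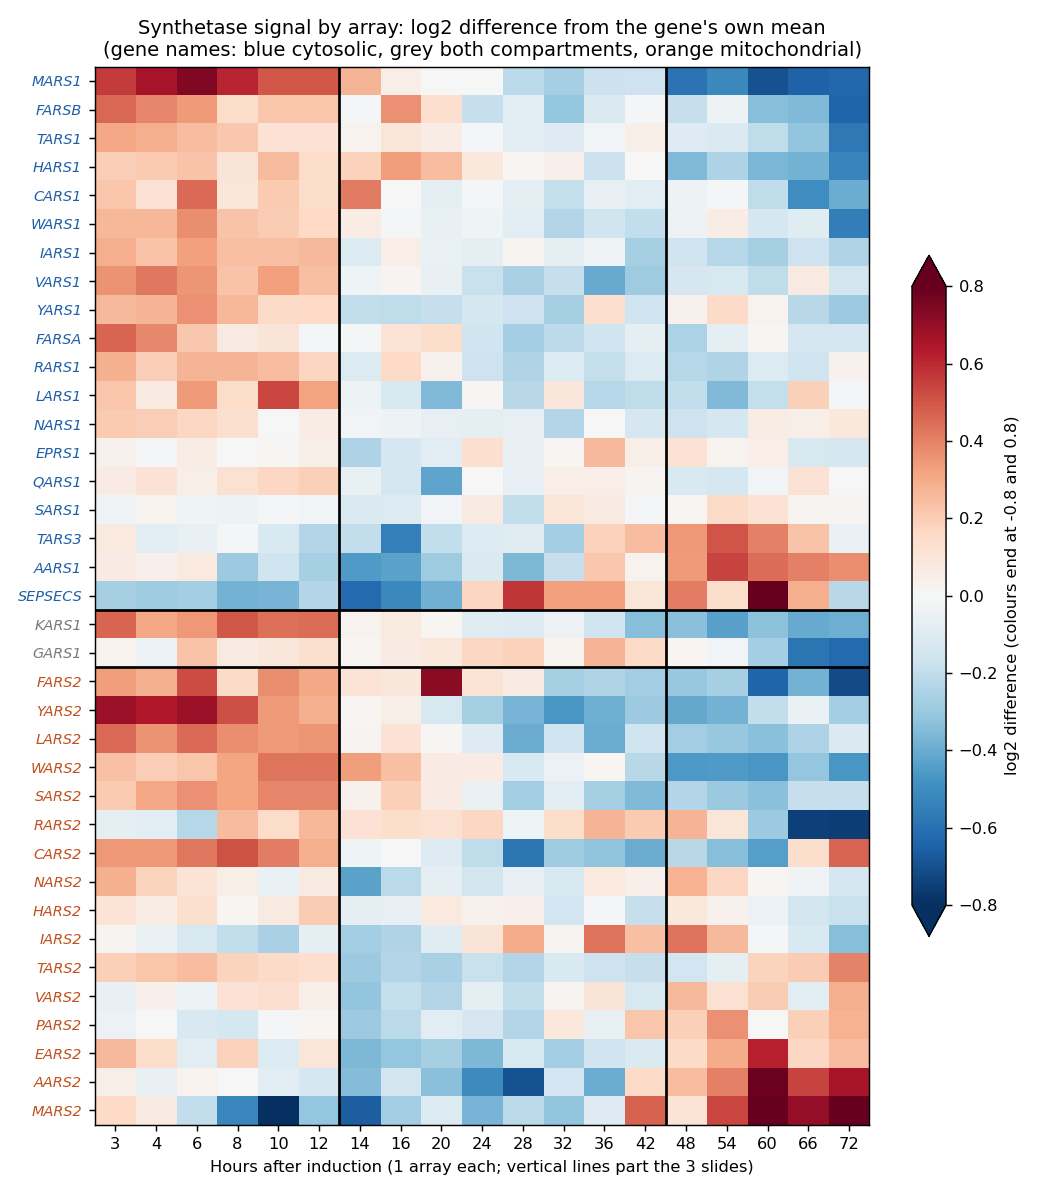
Heat map of the 37 synthetase genes (rows, grouped by compartment and ordered by their late minus early difference) over the 19 arrays (columns, hours after induction). Colour gives the log2 difference of each signal from the mean of that gene, with the same scale for all genes, and vertical lines part the 3 slides. MARS1, YARS2 and KARS1 go from red to blue, AARS1, AARS2 and MARS2 end in red, and many genes turn paler or blue at the first slide boundary.

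A large part of the fall lay at the border between the first and the second slide. From 12 h to 14 h the signal dropped in 33 of 37 synthetases (89.2%), including all 16 mitochondrial ones, and in 75.3% of all genes. The median step was -0.27 (log2) for the synthetases and -0.19 for all genes. The largest of these steps were in NARS2 (-0.50), EARS2 (-0.45), TARS2 (-0.42) and KARS1 (-0.42), whereas CARS1 stepped up by 0.27 and TARS3, HARS1 and FARSA by 0.04, 0.04 and 0.0014. The array at 14 h also had the smallest share of probes well above background, and 8 of 37 synthetases (21.6%) had their lowest signal there, compared with 8.69% of all genes. Slide and time cannot be told apart for this step. From 42 h to 48 h, across the second border, the median step was 0.03 for the synthetases and -0.0033 for all genes.

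**Figure D2:**
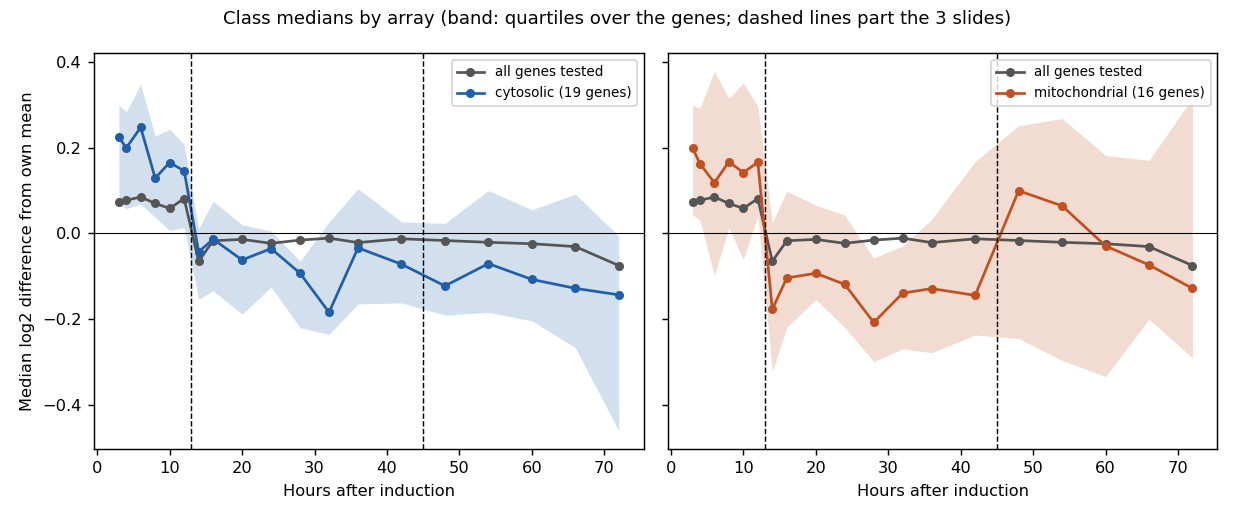
Median log2 difference from each gene's own mean by hours after induction, for the 19 cytosolic genes (left) and the 16 mitochondrial genes (right), with the quartiles over the genes as a band and the median of all 16694 genes in grey. Dashed lines part the slides. The cytosolic median goes from 0.15 at 12 h to -0.04 at 14 h and ends at -0.14 at 72 h, and the mitochondrial median is lowest at 28 h and back above 0 at 48 h.

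Treating the slide as a block, which removes differences between slides from the slope, left few calls. With it, 2 of 37 synthetases still fell and none rose, against 5.33% and 4.22% of all genes (10 and 4 synthetases by limma's p under 0.05 before adjustment). All 25 slopes called without the block kept their sign, 13 were as large or larger with the block and 12 were smaller. Of these 25, 23 were no longer called, and the same counts over all genes were not computed. The slope of CARS1 went from -0.00883 to -0.0140 per hour (adjusted p = 0.0524 with the block), that of FARSB from -0.0117 to -0.0149 (adjusted p = 0.0519) and that of FARS2 from -0.0155 to -0.0192 (adjusted p = 0.0513), whereas that of RARS1 shrank from -0.00600 to -0.00117 (adjusted p = 0.878). The ones still called were HARS1 (slope -0.0110 per hour, adjusted p = 0.0322) and WARS1 (slope -0.0128 per hour, adjusted p = 0.0268). Fitted within a single slide, no synthetase was called. In the first slide 3.28% of all genes fell and 1.96% rose, in the second 2.89% fell and 4.41% rose, and in the third 1.01% fell and 0.383% rose. By limma's p under 0.05 before adjustment, 6, 11 and 7 synthetases fell and 2, 8 and 3 rose in the first, the second and the third slide. At this threshold no share of all genes was computed, here or with the block. These counts are therefore not read as a result about the synthetases. The slopes of CARS1, FARSB, HARS1, IARS1, MARS1, TARS1, WARS1 and FARS2 were below 0 within each of the 3 slides (8 of 37, 21.6%, compared with 10.9% of all genes). QARS1 alone had slopes above 0 in all of them (2.70%, compared with 10.7%). All these counts, also those with the block, use the brightest probe of each gene. For IARS1 the dimmer probe A_33_P3209346 had slopes above 0 in every slide. It was called rising with the block (slope 0.0154 per hour, adjusted p = 0.0485), whereas the probe A_33_P3209351 had slopes below 0 in every slide. The dimmer MARS1 probe had slopes of -0.0215, -0.00590 and 0.000203 in the first, the second and the third slide.

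**Figure D3:**
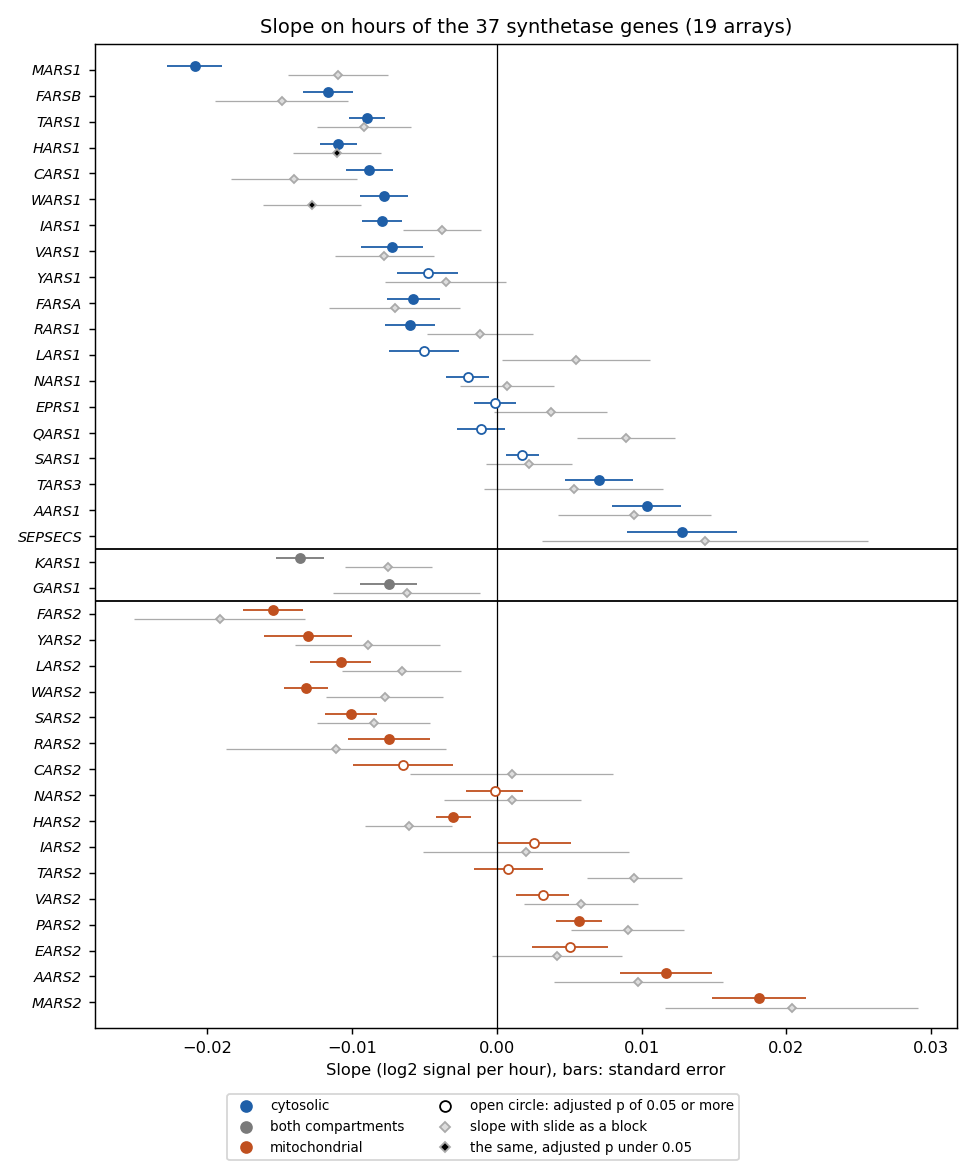
Slope of log2 signal on hours for the 37 synthetase genes, as circles with standard errors (19 arrays; filled where the adjusted p is under 0.05, coloured by compartment), and the slope with the slide as a block as small diamonds (black where the adjusted p is under 0.05). The block widens the bars, and HARS1 and WARS1 keep an adjusted p under 0.05.

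Of the 19 cytosolic genes, 10 fell (52.6%), 3 rose (15.8%) and 6 were not called, against 32.7% of all genes falling and 21.3% rising. MARS1, the methionyl-tRNA synthetase, whose product also loads the initiator tRNA, had the largest fall. Its signal was 19180, 20591 and 21755 at 3, 4 and 6 h, lay between 18417 and 19872 from 8 to 12 h, went from 15733 at 14 h to 11642 at 42 h and lay between 8028 and 9105 from 48 h on. Every array of a slide was thus below every array of the slide before it. The late signal was 2.48-fold lower than the early one (slope -0.0209 ± 0.00187 log2 per hour, SE; adjusted p = 4.69e-08). Blocked by slide, the slope of MARS1 became -0.0110 (adjusted p = 0.0556). A second, dimmer probe for the same MARS1 transcript, A_33_P3379377, read 724 to 1059 and did not pass the test (late minus early -0.01, adjusted p = 0.750). The 2 probes thus disagree, and the fall of MARS1 rests on the brighter one.

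The phenylalanyl-tRNA synthetase of the cytosol is built from the subunits FARSA and FARSB. FARSB ran from 1038 at 72 h to 2227 at 3 h, with a median of 1609, and its late signals of 1281, 1270 and 1038 were all below the early 2227, 2129 and 2049. The difference was -0.84 (slope -0.0117 ± 0.00172 per hour, adjusted p = 1.62e-05). FARSA fell by 0.44 (adjusted p = 0.0122), mostly between 3 h (7208) and 12 h (5164), and stayed between 4333 and 5771 from 14 h on.

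TARS1, the threonyl-tRNA synthetase, declined from 37322 at 3 h to 20234 at 72 h, with a median of 30751. Its difference was -0.65 (adjusted p = 6.76e-06), and its 3 late arrays were the lowest of the series. HARS1, the histidyl-tRNA synthetase, stayed between 7412 and 8699 up to 20 h and then declined to 4799 at 72 h, with a median of 7322. It fell by 0.63 (adjusted p = 9.84e-07), and since it did not drop from 12 h (7640) to 14 h (7835), its fall lay within the later slides and at their border (6884 at 42 h, 5404 at 48 h). CARS1, the cysteinyl-tRNA synthetase, ran from 759 at 66 h to 1469 at 6 h, with a median of 1060, and fell by 0.63 (adjusted p = 0.000177).

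WARS1, the tryptophanyl-tRNA synthetase, had its highest signal of 6980 at 6 h and its lowest of 3666 at 72 h, with a median of 5256. The difference was -0.56 (adjusted p = 0.000642). Its time course was not a steady decline, since the signal went down to 4579 at 32 h and back to 5613 at 54 h before the low value at 72 h.

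The other cytosolic genes that fell were IARS1, VARS1 and RARS1, which load isoleucine, valine and arginine. They had differences of -0.50, -0.47 and -0.33 and adjusted p of 8.92e-05, 0.00846 and 0.00634. In IARS1 (18288 at 12 h, 14159 at 14 h) the largest step between neighbouring arrays was the one between the first and the second slide. The 3 probes for IARS1 disagree: the brightest and A_33_P3209351 (difference -0.30, adjusted p = 0.0289) fell, and A_33_P3209346 rose (difference 0.44, adjusted p = 0.0240).

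The cytosolic genes that rose were AARS1, TARS3 and SEPSECS. AARS1, the alanyl-tRNA synthetase, had early signals of 3745, 3691 and 3782, a lowest signal of 2614 (14 h), a highest of 5220 (54 h), late signals of 4876, 4749 and 4647 and a median of 3662. All late arrays were above all early arrays, by 0.35 (log2) on average (slope 0.0103 ± 0.00238 per hour, adjusted p = 0.00131). The difference of AARS1 was 0.0087 with the arrays scaled to their median and -0.24 with spike-in scaling. SEPSECS makes the selenocysteinyl-tRNA from a tRNA first loaded with serine, the last step before selenocysteine enters a protein. Its probe was dim, from 70.4 at 14 h to 254 at 60 h with a median of 93.0, and it rose by 0.71 (adjusted p = 0.00836). The late values were 254, 133 and 93.0 at 60, 66 and 72 h, compared with 90.2, 89.0 and 89.8 early, so 1 array sets much of the difference and the value at 72 h is close to the early ones. TARS3, a second threonyl-tRNA synthetase, was also dim (156 at 16 h to 324.5 at 54 h, median 219). Its slope was above 0 (adjusted p = 0.0160), but its early and late arrays overlap, since it returned to 221 at 72 h.

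The 6 cytosolic genes that were not called were EPRS1, QARS1, SARS1, NARS1, LARS1 and YARS1, with slopes from -0.00506 to 0.00174 per hour and adjusted p from 0.0607 (YARS1) to 0.959 (EPRS1). EPRS1, which carries glutamyl- and prolyl-tRNA synthetase in 1 chain, ran from 20533 at 14 h to 29153 at 36 h and ended at 22224. QARS1, the glutaminyl-tRNA synthetase, lay between 28010 and 42784. SARS1, the seryl-tRNA synthetase, whose product SEPSECS builds on, lay between 19514 and 24847. A second probe for a SARS1 transcript of a non-coding type fell (difference -0.75, adjusted p = 0.0273), so the probes of SARS1 differ as well.

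Both genes that serve both compartments fell, by different courses. KARS1, the lysyl-tRNA synthetase, lay between 16385 and 18688 in the first slide, between 10435 and 13929 in the second and between 9799 and 10537 in the third, with a median of 12815. It fell by 0.75 (slope -0.0136 ± 0.00164 per hour, adjusted p = 1.58e-06), and the step from 17982 at 12 h to 13486 at 14 h alone was -0.42. GARS1, the glycyl-tRNA synthetase, stayed between 6462 and 8048 up to 54 h, with a step of -0.11 from 12 h to 14 h, whereas the late arrays read 5529, 4442 and 4337. Its median was 6985, and it fell by 0.56 (adjusted p = 0.00411).

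**Figure D4:**
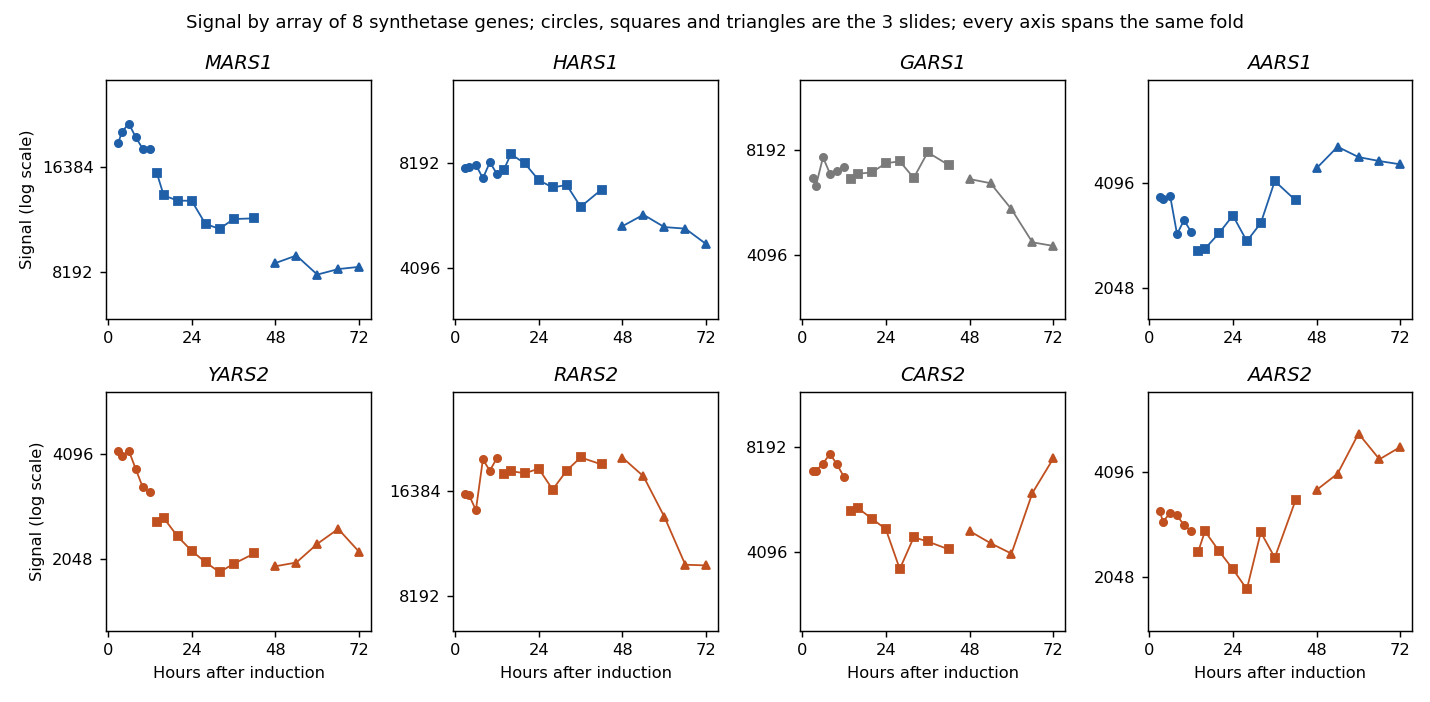
Signal (log axis, the same fold span in every panel) by hours after induction for 8 synthetase genes, with circles, squares and triangles for the 3 slides and 1 point per array. MARS1 declines in steps, GARS1 drops after 54 h, RARS2 steps up between 6 and 8 h and drops after 54 h, YARS2 declines to 1882 at 32 h and levels off, CARS2 dips and returns, and AARS1 and AARS2 dip and end above their start.

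Of the 16 mitochondrial genes, 7 fell (43.75%), 3 rose (18.75%) and 6 were not called, against 32.7% of all genes falling and 21.3% rising. FARS2, the mitochondrial phenylalanyl-tRNA synthetase, a single chain unlike its cytosolic counterpart, lay between 954 and 1478 up to 24 h and between 546 and 938 after it, with a median of 954. It had the largest fall of these genes, 0.96 (slope -0.0155 ± 0.00206 per hour, adjusted p = 5.07e-06), and its highest value, 1478 at 20 h, stands apart from its neighbours. YARS2, the tyrosyl enzyme, fell early, from 4196 at 3 h to 1882 at 32 h, and then lay between 1956 and 2503, with a median of 2381. Its difference was -0.85 (adjusted p = 0.00132). In both genes the late arrays were all below the early ones.

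LARS2, WARS2 and SARS2, which load leucine, tryptophan and serine, fell by 0.65, 0.63 and 0.53. LARS2 ran from 1222 at 28 h to 2205 at 6 h, with a median of 1497 (adjusted p = 0.000298). WARS2 ran from 823 at 72 h to 1531 at 10 h, with a median of 1191 (adjusted p = 1.01e-06). SARS2 ran from 2651 at 42 h to 4438 at 12 h, with a median of 3263 (adjusted p = 0.000113). All of them were lower in every array after 24 h than in any array of the first slide.

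RARS2 and HARS2 fell by 0.47 and 0.22. RARS2, the arginyl enzyme, read 14463 to 20490 up to 54 h and 13843, 10085 and 10039 in the late arrays, with a median of 18456, a drop like that of GARS1. Its slope rested on single arrays: the adjusted p of 0.0334 became 0.208 without the array of 72 h. HARS2, with an adjusted p of 0.0493, lost its call when any 1 of 15 arrays was left out.

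The mitochondrial genes that rose were MARS2, AARS2 and PARS2. AARS2, the alanyl enzyme, had early signals of 3165, 2941 and 3126, a lowest signal of 1886 (28 h), late signals of 5271, 4449 and 4827 and a median of 2941. All late arrays were above all early ones, by 0.65 (slope 0.0117 ± 0.00317 per hour, adjusted p = 0.00463). MARS2, the methionyl enzyme, was near the detection limit, from 28.4 at 10 h to 95.7 at 60 h with a median of 45.8, and rose by 0.83 (slope 0.0181 ± 0.00326 per hour, adjusted p = 0.000134). Its late values of 95.7, 80.6 and 90.4 were all above its early values of 55.2, 52.0 and 43.0. PARS2, the prolyl enzyme, ran from 864 at 14 h to 1362 at 54 h, with a median of 1048 (difference 0.21, adjusted p = 0.00578), and its early and late arrays overlap.

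The mitochondrial genes not called by a straight line were CARS2, NARS2, IARS2, TARS2, VARS2 and EARS2. All but VARS2 were called by the cubic fit, which allows a rise and a fall: over all synthetases it called 32 of 37 (86.5%), against 79.5% of all genes. CARS2, the cysteinyl enzyme, went from 7833 at 8 h to 3661 at 28 h and back to 7598 at 72 h (adjusted p = 9.94e-06 for the cubic fit). TARS2, the threonyl enzyme, was between 2623 and 2836 in the first slide, between 1960 and 2197 in the second and went from 2153 to 3147 in the third (adjusted p = 8.43e-05 for the cubic fit). IARS2, the isoleucyl enzyme, had the opposite course, from 6970 at 14 h to 11451 at 36 h and down to 6683 at 72 h (adjusted p = 0.000310 for the cubic fit).

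For 15 amino acids, both the cytosolic and the mitochondrial gene were described here, counting EPRS1 with EARS2 and FARSA with FARS2. Both genes fell in 4 of these pairs (FARSA and FARS2, HARS1 and HARS2, RARS1 and RARS2, WARS1 and WARS2), and both rose in 1, the alanyl pair AARS1 and AARS2. In 1 pair the calls were opposite: MARS1 fell by 1.31 by its brighter probe only, while MARS2, near the detection limit, rose by 0.83. In the other 9 pairs at least 1 gene was not called. Over all genes 32.7% fell and 21.3% rose, and no share was computed for pairs. The calls of HARS2 and RARS2 were lost when any 1 of 15 and any 1 of 5 arrays was left out. With the slide as a block no mitochondrial gene was called, so no pair kept both calls.

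HARS1 and HARS2 lie head to head. The call of HARS2 (adjusted p = 0.0493) was lost when any 1 of 15 arrays was left out and with the slide as a block (adjusted p = 0.210). Common control of the 2 genes was not tested. In the RefSeq promoter windows of GRCh38.p14, the start site of HARS1 on the minus strand is separated by 84 bases from that of HARS2 on the plus strand. The stretch between them, chr5:140691371-140691454, is shown on the plus strand because both genes fell, HARS1 by 0.63 and HARS2 by 0.22:
HARS1 to HARS2: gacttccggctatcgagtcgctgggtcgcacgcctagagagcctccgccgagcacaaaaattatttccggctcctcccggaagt

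ATF4 acts through an amino acid response element, whose core was searched as TGATGNAA on both strands in the RefSeq promoter windows (GRCh38.p14), which run from 250 bases before to 50 after a start site. A window was found for 30 of the 37 synthetases. No entry was used for AARS2, LARS1, SEPSECS, TARS3, VARS1, VARS2 and YARS1. The core was in a window of 8 of the 30 genes (26.7%): AARS1, CARS1, IARS1, MARS1, NARS1 and TARS1 of the cytosolic genes, GARS1, and YARS2 of the mitochondrial genes. It was present in 4.46% of all 27305 genes with a window and in 3.62% of all 35116 windows. The matches, with 11 bases on either side in the direction of the gene and the match in capitals, are shown because their genes include both the largest fall, MARS1, and a rise, AARS1:
MARS1 (chr12:57488053-57488082, plus strand): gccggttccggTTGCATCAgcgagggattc
TARS1 (chr5:33440956-33440985, plus strand): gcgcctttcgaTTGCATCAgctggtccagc
CARS1 (chr11:3057407-3057436, minus strand): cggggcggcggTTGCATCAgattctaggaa
IARS1 (chr9:92293692-92293721, minus strand): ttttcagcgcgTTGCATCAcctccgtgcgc
AARS1 (chr16:70289675-70289704, minus strand): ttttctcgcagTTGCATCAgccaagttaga
NARS1 (chr18:57621804-57621833, minus strand): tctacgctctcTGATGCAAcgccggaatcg
GARS1 (chr7:30594834-30594863, plus strand): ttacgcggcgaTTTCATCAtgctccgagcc
YARS2 (chr12:32756076-32756105, minus strand): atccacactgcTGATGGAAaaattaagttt

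MARS1, TARS1, CARS1, IARS1 and AARS1 share the same 8 letters in the same orientation, and NARS1 has them on the other strand. In MARS1, TARS1, CARS1, IARS1 and NARS1 the match begins within 14 bases of the start site, in GARS1 33 bases before it, in AARS1 187 and in YARS2 197 bases before it. Among the 8 genes, 6 fell, AARS1 rose and NARS1 was not called (difference -0.13), against 32.7% of all genes falling and 21.3% rising. Of all 37 synthetases 51.4% fell and 16.2% rose. With the slide as a block none of the 8 was called (lowest adjusted p = 0.0524, CARS1), and the probes of MARS1 and of IARS1 disagree. These matches are a description of letters, not of binding.

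The synthetases often listed as ATF4 targets, 12 of the cytosolic and shared genes, held 1 that rose (AARS1), 6 that fell (CARS1, GARS1, IARS1, MARS1, TARS1 and WARS1) and 5 that were not called, against 21.3% of all genes rising and 32.7% falling. Of the 9 other cytosolic or shared synthetases, 6 fell (66.7%) and 2 rose (22.2%), so falls were not more frequent among the listed genes (50.0%). With the slide as a block only WARS1 of the 12 listed genes was called. ATF4 itself fell, from 143792 at its highest to 83314 at its lowest (difference -0.57, adjusted p = 0.00159). Blocked by slide, ATF4 had a slope of -0.000275 per hour (adjusted p = 0.969) and was no longer called. Of 16 genes of the ATF4 and amino acid response, 8 (50.0%) fell, 1 (6.25%) rose and 7 were not called. With the block 2 fell, SLC7A5 and PSAT1, and none rose. SLC7A5, the transporter that brings leucine and other large amino acids into the cell, went down from 10967 to 1657 (difference -2.47, adjusted p = 1.53e-10). PSAT1, of serine synthesis, fell by 1.06, whereas PHGDH and PSPH, also of serine synthesis, were not called (differences -0.0078 and -0.043). ASNS, the asparagine synthetase, fell by 0.39. DDIT3, a transcription factor of the stress response, rose by 1.07 (adjusted p = 0.00419). ASNS and DDIT3 lost their calls with the block (adjusted p = 0.553 and 0.387).

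Of 7 synthetases of the multi-synthetase complex, IARS1, MARS1, RARS1 and KARS1 fell (57.1%, against 32.7% of all genes). Of the 14 cytosolic or shared synthetases outside the complex, 8 fell, which is also 57.1%. EPRS1, LARS1 and QARS1 were not called. Among the scaffold proteins of the complex, AIMP2 fell by 0.80 (6776 to 13181, adjusted p = 4.44e-07) and EEF1E1 by 0.98 (5106 to 12010, adjusted p = 1.19e-07), while AIMP1 stayed between 9048 and 11333 (difference -0.0014, adjusted p = 0.623). With the slide as a block AIMP2 (adjusted p = 0.0465) and EEF1E1 (adjusted p = 0.00460) were still called. None of the 7 synthetases of the complex was called with the block.

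Over all 27 partner genes of tRNA charging that were tested, 16 (59.3%) fell and 2 (7.41%) rose, against 32.7% and 21.3% of all genes. The largest falls were in XPOT, which exports tRNA from the nucleus (-1.08, adjusted p = 7.43e-05), EEF1E1, DTD2, which removes wrongly charged amino acids (-0.86, adjusted p = 0.000146), and PSTK, the kinase that acts before SEPSECS (-0.86, adjusted p = 0.000641). The genes that rose were EEF1A1 (0.33, adjusted p = 0.0127), which carries charged tRNA to the ribosome, and EEF2 (0.26, adjusted p = 0.00989), which moves the ribosome along. The differences of EEF1A1 and EEF2 were -0.010 and -0.075 with the arrays scaled to their median, and -0.26 and -0.32 with spike-in scaling. Of the mitochondrial elongation factors TUFM, TSFM and GFM1 fell, TSFM by 0.82. Of the 5 genes listed for the selenocysteine pathway, PSTK and SEPHS2 (-0.34) fell and SEPHS1, SECISBP2 and EEFSEC were not called. SEPSECS was called rising. With the slide as a block PSTK, SEPHS2 and SEPSECS were not called (adjusted p = 0.746, 0.509 and 0.453). XPOT, DTD2, EEF1A1 and EEF2 also lost their calls with the block (adjusted p = 0.0592, 0.165, 0.367 and 0.285). The 3 partner genes still called with the block were AIMP2, EEF1E1 and TSFM (adjusted p = 0.0423 for TSFM), and all of them fell.

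The direction of the weaker changes depended on the scaling of the arrays. Scaled to the median of each array, none of the 19 cytosolic genes rose and 15 fell, 1 of the 16 mitochondrial genes (MARS2) rose and 8 fell, and GARS1 and KARS1 fell, against 9.78% of all genes rising and 46.1% falling. This scaling moved the median difference of all genes from -0.11 to -0.45 and that of the synthetases to -0.67. Scaled to the spike-in RNA, control transcripts put into each sample, none rose and 14 cytosolic, both shared and 8 mitochondrial genes fell, against 3.59% and 44.5% of all genes, with medians of -0.69 for all genes and -0.92 for the synthetases. Before adjustment, limma's p was under 0.05 for 1 rising synthetase under either scaling, with no share of all genes computed at this threshold. The rises of AARS1, AARS2, SEPSECS, TARS3 and PARS2 were called with the 75th percentile of the array but with neither of these scalings. MARS2 lost its call with spike-in RNA (adjusted p = 0.0554). AARS1 and AARS2 were also called with normexp and quantile normalisation (adjusted p = 2.02e-05 and 0.000335). With the slide as a block none of these rises was called. The differences of TARS3 and PARS2 turned to -0.12 and -0.13 with the array median and to -0.37 and -0.375 with spike-in RNA. With spike-in RNA that of AARS1 turned to -0.24 as well, whereas its slope stayed above 0 (0.00290 per hour, adjusted p = 0.606).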

How the data were processed

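Total RNA of 19 samples was hybridised to one-colour Agilent arrays. The authors deposited the output of Agilent Feature Extraction 10.10.1.1 per array, whose processed intensity of a spot has its background subtracted and is not scaled between arrays. The authors also deposited a table of the same intensities multiplied by 1 factor per array (0.905 to 1.38), blank where a spot was not well above background.

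Control spots and flagged spots (0.632%) were removed, and saturation occurred in no spot. Spots of a probe were averaged, and log2 intensities were taken minus the 75th percentile of each array (526 to 800 before scaling). Probes were named through their RefSeq accession (28174 of 50683 matched). A gene was represented by its brightest probe. Slopes on hours and cubic fits were computed with limma 3.58.1 in R 4.3.3 (lmFit, eBayes, Benjamini-Hochberg adjustment) over 32113 probes, those above background on 5 arrays or more. The slope fit was also run on simulated data with 200 set slopes, of which 153 (76.5%) were recovered, with 10 false calls. The simulated noise was independent between arrays and held no steps between slides, so it cannot show how slides affect the calls. Python 3.11.15, numpy 2.4.6 and pandas 2.3.3 made the tables. There is no replicate of a time point, and precision is limited by the count of arrays.

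In each compartment the up to 6 largest rises and falls among called genes were given with their lowest, median and highest signal. Of the partner genes, the up to 4 largest in each direction were given. The members and lists were chosen with earlier results of these data known. Promoter windows came from RefSeq. Some genes that the rule takes are not reported here and are left out of every count of synthetases.

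The alternatives were the array median or spike-in RNA as scaling, normexp with quantile normalisation (run on median pixel intensities), the deposited table, no filter or a filter on all arrays, the slide as a block, the mean of all detected probes, flagged spots kept, log2 hours, GARS1 and KARS1 counted as cytosolic, and each array left out. Leaving out the arrays of 14, 16 and 72 h together was chosen after seeing the data.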

Additional observations from a re-analysis of the deposited data

How the results depend on the processing

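No paired analysis was possible because the groups hold 1 array each and share fewer than 2 replicate numbers. The slide as a block changed the results most. With it the cytosolic genes held 0 rising and 2 falling (3 and 10 without it), the mitochondrial genes 0 and 0 (3 and 7), and the partner genes 0 and 3 (2 and 16). The array median as scaling gave 0 cytosolic, 1 mitochondrial and 0 partner genes rising, and spike-in RNA as scaling gave 0, 0 and 0, with slopes of -0.00177 for PARS2 and -0.000377 for TARS3. Normexp with quantile normalisation gave 5 cytosolic genes rising and 5 falling and 6 mitochondrial genes rising and 5 falling, with 11 of all synthetases in either direction, and turned the slope of HARS2 to 0.000497. With log2 hours 0 partner genes rose, and without the arrays of 14, 16 and 72 h 1 did. Within single slides, where no synthetase was called (0 in each), the array median gave 1 in the first and 2 in the third, normexp 2, 5 and 4 in the first, the second and the third, and spike-in RNA 29 in the third, and the spike-in signal lay 5.06 and 5.05 (log2) above the 75th percentile at 66 and 72 h, compared with 3.84 to 4.69 up to 60 h. The cause of these changes was not tested. With each array left out, 3 cytosolic genes rose and 10 to 11 fell, 3 to 4 mitochondrial genes rose and 5 to 7 fell, and 1 to 2 partner genes rose and 16 to 17 fell. Of the 25 called synthetases only HARS2 and RARS2 lost a call in this way. IARS1 lost its call with the mean of all its probes (adjusted p = 0.226). Dim probes such as MARS2 and SEPSECS are the least certain.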
